A study of Mus musculus with 20 samples.

Results

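The way of fat from circulating lipoproteins into the fat cell was followed through 10 genes, which are described here in 20 libraries made from the polyA RNA of mouse eWAT, the white fat around the epididymis. They were chosen by symbol: Lpl, Gpihbp1, Angptl4, Lmf1, Cd36, Fabp4, Fabp5, Vldlr, Slc27a1 and Acsl1, which are 10 of the 55401 genes of the deposited count table, and all 10 were found in it by gene identifier. The series, whose title links food insecurity to adiposity, set 10 libraries from mice under random food restriction, a regime that joins intermittent fasting with a 5% cut in calories, against 10 from mice on a control diet. A label named spermatozyte contamination marks 3 restricted and 7 control libraries Yes, and 7 restricted and 3 control libraries No. Tissue, diet, that mark and the RNA integrity number are what the labels used here give, with nothing on how the mark was judged or on whether each library is its own animal. All p-values below therefore speak of the spread among these libraries, part of which may be technical. Libraries are called Restricted 1 to 10 and Control 1 to 10 after the replicate numbers in their titles.

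Triglycerides travel in the blood inside chylomicrons and very low density lipoproteins, and white fat can store their fatty acids only after lipoprotein lipase has cut them free on the inner face of the capillaries. The lipase is made in the fat cell, folded with the help of Lmf1, carried across the endothelium by Gpihbp1 and inactivated by Angptl4, which fat makes in fasting. The released fatty acids enter the cell with the help of Cd36 and fatty acid transport proteins such as Slc27a1, are trapped as acyl-CoA by Acsl1 and are carried in the cytosol by Fabp4 and Fabp5. In rodents, feeding raises and fasting lowers lipase activity in white fat, and Angptl4 is held to be a main part of that switch.

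Libraries held 14306528 to 44061508 counts, and each of the 10 genes was read at least 545 times in every library. Some genes of the lists below had far fewer, with 626 counts over all libraries for Apoc3 and 742 for Slc27a6. The adipocyte marker Adipoq was at 3433 to 5325 CPM (counts scaled to 1000000 per library) in restricted and 3213 to 4226 CPM in control libraries, while Ucp1, the defining gene of brown fat, reached at most 0.0898 CPM in restricted and 0.124 CPM in control libraries. Transcripts of skeletal muscle stood apart in 6 libraries, Restricted 1 and Control 1 to 5, whose 14 muscle markers summed to 984 to 4247 CPM, against 21.3 to 124 CPM in the other 14 libraries. Restricted 1 had the 4247 CPM. The tissue label says eWAT while the protocols name QUAD, and whether that bears on the muscle transcripts was not tested. Of 12 macrophage markers, 11 fell and 0 rose with restriction, beside 7.29% lower and 6.31% higher of all tested genes. The macrophage markers summed to 1096 to 1716 CPM in restricted and 1503 to 2044 CPM in control libraries. The summed markers of adipocytes and of endothelium overlapped between the diets, at 29269 to 42199 CPM and 887 to 1391 CPM in restricted against 27685 to 40543 CPM and 855 to 1348 CPM in control libraries. The 12 germ cell markers summed to 4.93 to 124 CPM in libraries marked Yes and 3.59 to 40.0 CPM in those marked No. Medians were 15.0 CPM in those marked Yes and 5.10 CPM in those marked No. The ranges overlapped, so the label does not stand for a level of these markers. In bulk tissue, fewer cells of a type and less RNA per cell cannot be told apart.

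Together the 10 genes took 2.61% to 3.34% of the counts of restricted libraries and 2.43% to 2.93% of those of control libraries. The cytosolic carriers Fabp4 and Fabp5 rose with restriction and the lipase inhibitor Angptl4 fell. The other 7 genes, Lpl among them, did not pass the test. The test was edgeR's quasi-likelihood test over 15986 genes with the contamination label in the model and Benjamini-Hochberg adjustment at 0.05, and every fold change below is restricted over control on the log2 scale. In that test 13.6% of all genes were called, 6.31% higher and 7.29% lower, beside 2 higher and 1 lower of these 10. The median log2 fold change of the 10 was 0.19, and that of all tested genes was 0.01, both with all 20 libraries. Without the 6 libraries with muscle transcripts the values were −0.0046 for Lpl, −0.02 for Cd36, 0.01 for Vldlr and 0.04 for Slc27a1. In that set Gpihbp1 was at 0.13, Fabp5 at 0.13, Acsl1 at 0.18, Fabp4 at 0.28, Lmf1 at −0.11 and Angptl4 at −0.48. Of the 3 calls, that of Fabp4 held without each single library, that of Fabp5 rested on Restricted 1 and Control 3, and that of Angptl4 ended without any 1 of 14 libraries. Without Restricted 1, 1 of the 10 was higher and 1 lower, and without the 6 libraries with muscle transcripts 0 were higher and 1 lower, Angptl4. The RNA integrity number averaged 7.18 ± 0.399 in 8 restricted and 7.41 ± 0.267 in 9 control libraries (SD). With it as a term in those 17 libraries none of the 3 passed edgeR's test, with log2 fold changes of 0.29 for Fabp4 (adjusted p = 0.14), 1.10 for Fabp5 (adjusted p = 0.0655) and −0.36 for Angptl4 (adjusted p = 0.272). In the same 17 libraries without that term Fabp4 (0.34, adjusted p = 0.0263), Fabp5 (0.91, adjusted p = 0.0493) and Acsl1 (0.50, adjusted p = 0.0486) passed. Angptl4 did not (−0.41, adjusted p = 0.0797, edgeR). None of Fabp4, Fabp5 and Angptl4 passed in the libraries marked No alone or Yes alone. The log2 fold changes for Fabp4 were 0.35 in those marked No (adjusted p = 0.163) and 0.28 in those marked Yes (adjusted p = 0.17, edgeR).

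**Figure D1:**
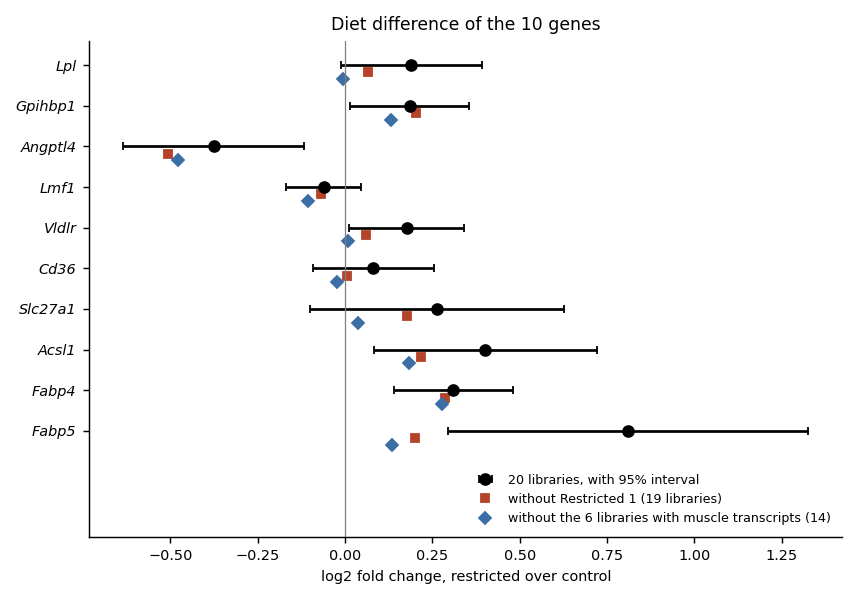
Log2 fold change of each gene, restricted over control, on the x axis, from edgeR's fit to 20 libraries with its 95% interval (black) and without Restricted 1 (squares) or without the 6 libraries with muscle transcripts (diamonds). Angptl4 stays below 0 and Fabp4 close to 0.3 in all 3 fits, while Fabp5 lies at 0.81 with all 20 libraries and at 0.20 and 0.13 in the smaller sets.

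Lpl, the lipase itself (ENSMUSG00000015568.16; chr8:68880491-68907448, plus strand, GRCm38), had 8799 CPM in the lowest restricted library, a median of 11844.4 and 15537.4 in the highest, against 8590, 10113 and 11515 CPM in control libraries. Restricted libraries spread on both sides of the control median: 6 of 10 lay above the highest control library, and Restricted 2 and 3, at 9479 and 8799 CPM, lay below the control median. The mean was 11752 ± 1897 CPM in restricted and 10121 ± 880 CPM in control libraries (SD, n = 10 each), and the log2 fold change of 0.19 had a 95% interval of −0.01 to 0.39 (adjusted p = 0.207, edgeR). Restricted 1 had the highest value, and without it the log2 fold change was 0.07 (adjusted p = 0.673, edgeR). Once the 6 muscle libraries were left out it was −0.0046 with the label in the model (adjusted p = 0.983, edgeR). The means there were 11331 ± 1434 CPM in restricted (n = 9) and 10496 ± 752 CPM in control libraries (n = 5, SD). The sign of the fit for Lpl was thus not kept, while the restricted mean stayed above the control mean. Skeletal muscle also makes lipoprotein lipase; with an index of muscle markers as a term the log2 fold change was 0.20 (adjusted p = 0.196, edgeR).

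Gpihbp1 (ENSMUSG00000022579.10; chr15:75596628-75599481, plus strand) encodes the anchor that holds the lipase on capillary endothelium. Its lowest, median and highest values were 114, 135 and 160 CPM in restricted and 92.0, 122 and 145 CPM in control libraries, and the groups overlapped except for 2 restricted libraries at the top and 2 control libraries at the bottom. The log2 fold change was 0.18 (95% interval 0.01 to 0.36) and missed the threshold after adjustment (adjusted p = 0.143, edgeR). Of 12 endothelial markers, 2 fell and 0 rose, beside 7.29% lower and 6.31% higher of all tested genes. Lmf1 (ENSMUSG00000002279.19; chr17:25579085-25662826, plus strand), the chaperone of the endoplasmic reticulum that matures the lipase, varied least of the 10, with a coefficient of variation of 7.12% in restricted and 7.26% in control libraries. It was at 34.2, 36.4 and 43.7 CPM in restricted and 34.6, 37.2 and 43.6 CPM in control libraries (lowest, median and highest), which are nearly the same ranges. Its log2 fold change was −0.06 with a 95% interval of −0.17 to 0.05 (adjusted p = 0.472, edgeR).

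Angptl4 (ENSMUSG00000002289.16; chr17:33773750-33781830, minus strand), the secreted inhibitor that unfolds the lipase, ran the other way. Its lowest, median and highest values were 221, 305 and 405 CPM in restricted libraries, against 263, 383 and 525 CPM in control libraries. No restricted library lay above the highest control library, 3 lay below the lowest and 7 below the control median, so the groups overlapped over much of their range. The mean was 311 ± 64.8 CPM in restricted and 376 ± 80.5 CPM in control libraries (SD, n = 10 each), a log2 fold change of −0.38 ± 0.124 (SE, adjusted p = 0.0476, edgeR) with the contamination label in the model. Without the label term it was −0.28 and did not pass (adjusted p = 0.148, edgeR). The call is at the edge of the threshold: it ended without any 1 of Restricted 2, 3, 5, 6, 7, 8 or 9 or of Control 3, 5, 6, 7, 8, 9 or 10, at adjusted p of 0.0531 to 0.139 (edgeR), with the largest loss without Control 3, the library with the 525 CPM (log2 fold change −0.31). Without Restricted 1 the log2 fold change was −0.51 (adjusted p = 0.00872), and with the 6 muscle libraries left out it was −0.48 (adjusted p = 0.0268, edgeR). With an index of muscle markers as a term it was −0.35 (adjusted p = 0.0633, edgeR). Among libraries marked No, the 7 restricted libraries (321 ± 58.3 CPM, SD) all lay below the 3 control libraries (451 ± 64.3 CPM, SD). The share of all genes with no overlap in so small a split was not counted. Among those marked Yes 3 restricted libraries (288 ± 86.8 CPM) overlapped 7 control libraries (344 ± 66.1 CPM).

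Transcripts of inhibitor and enzyme were compared as counts of Angptl4 per 100 counts of Lpl in the same library. Such a ratio does not depend on the scaling between libraries. This ratio was 2.01% to 3.28% with a median of 2.61% in restricted libraries, and 2.90% to 6.11% with a median of 3.63% in control libraries. It is given as a description of transcripts, with no test, and says nothing of protein or lipase activity, which these counts do not measure. The ranges overlapped between 2.90% and 3.28%, and the 6.11% was Control 3. The ratio of Gpihbp1 to Lpl had medians of 1.13% in restricted and 1.18% in control libraries, with ranges of 0.866% to 1.75% in restricted and 1.04% to 1.55% in control libraries.

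Vldlr (ENSMUSG00000024924.14; chr19:27216484-27249755, plus strand) encodes the receptor that docks triglyceride-rich lipoproteins next to the lipase and can take them up whole. Its lowest, median and highest values were 96.0, 109 and 155 CPM in restricted and 83.1, 101 and 115 CPM in control libraries. Most libraries of both diets lay close together, 9 of 10 restricted libraries were above the control median, and Restricted 1 stood alone at 155 CPM, with 125 CPM in the next. The log2 fold change was 0.18 (95% interval 0.01 to 0.34, adjusted p = 0.15, edgeR), 0.06 without Restricted 1 and 0.01 in the 14 libraries without muscle transcripts.

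**Figure D2:**
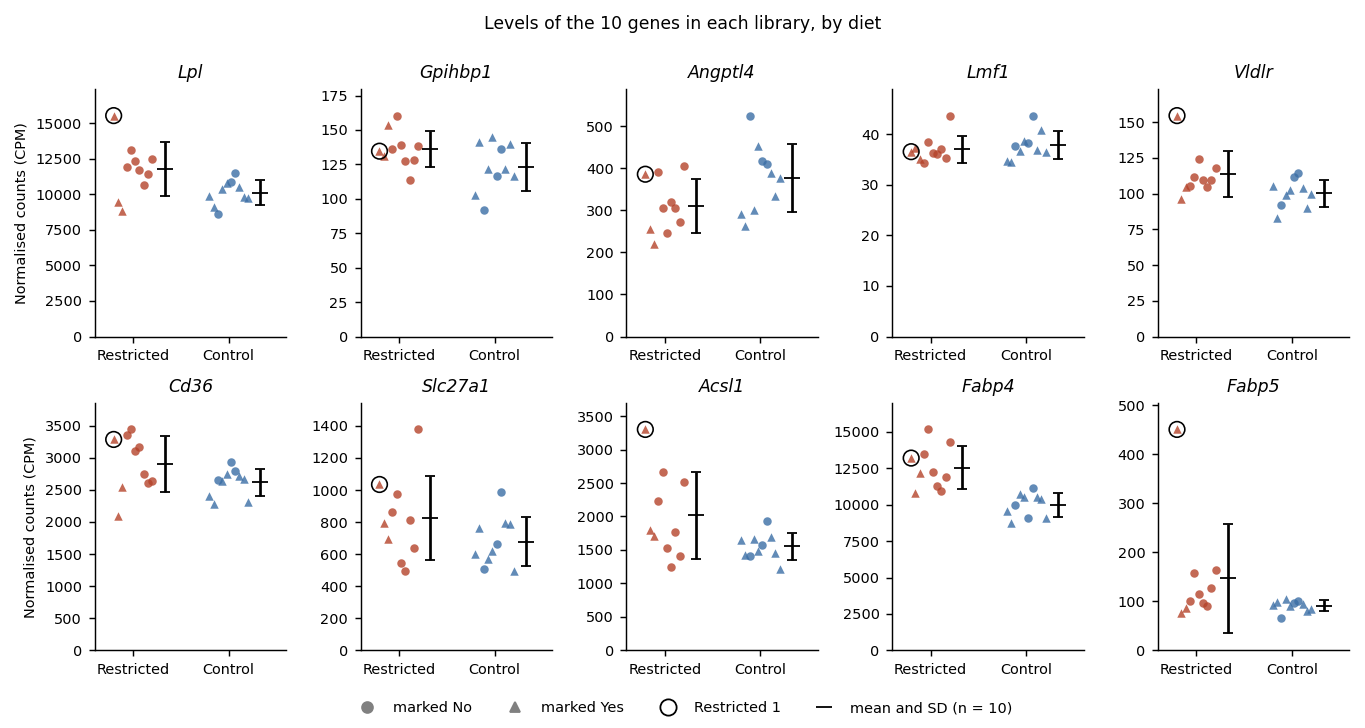
Normalised counts (CPM, linear axes from 0) of the 10 genes in each restricted library (left, red) and control library (right, blue); triangles are libraries marked Yes for contamination, circles those marked No, and bars give mean and SD over 10 libraries. Fabp4 shows 8 of 10 restricted libraries above the highest control library, and the ringed Restricted 1 stands far above the others in Fabp5 (450 CPM) and highest in Lpl, Vldlr and Acsl1.

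The cytosolic carriers Fabp4 and Fabp5 lie near each other on chromosome 3 and belong to 1 protein family. Over the 20 libraries Fabp4 had 5557717 counts and Fabp5 56912, so their sequences are shown to let a reader judge how well reads of the abundant gene can be told from those of the rare one. The first 150 coding bases are given, from the start codon, of the GENCODE vM21 transcripts Fabp4-201 (coding bases within chr3:10204520-10208511, minus strand) and Fabp5-201 (chr3:10012640-10016120, plus strand; GRCm38), with capitals for the longest stretch of identical bases.
Fabp4: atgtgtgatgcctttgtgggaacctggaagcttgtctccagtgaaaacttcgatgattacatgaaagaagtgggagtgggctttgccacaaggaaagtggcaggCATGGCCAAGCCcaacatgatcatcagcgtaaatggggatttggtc
Fabp5: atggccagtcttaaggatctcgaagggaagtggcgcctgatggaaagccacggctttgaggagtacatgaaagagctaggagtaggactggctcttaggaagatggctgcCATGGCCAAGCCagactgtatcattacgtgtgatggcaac
The whole coding sequences are 399 and 408 bases long and identical at 251 of 409 aligned positions (61.4%). Their longest identical run, CATGGCCAAGCC, is 12 bases, and no longer run is shared by the whole transcripts, while reads were pairs of 52 bases. Fabp5 shares a run of 68 bases with the gene annotated as Fabp5l2, so a read from within it could be given to either; Fabp5l2 had 15 counts in all libraries together, against 56912 for Fabp5.

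Fabp4 (ENSMUSG00000062515.3; chr3:10204088-10208576, minus strand), the main fatty acid carrier of adipocytes, was at 10782 CPM in the lowest, 12222.5 at the median and 15174 in the highest restricted library, against 8735, 10187 and 11131 CPM in control libraries. All 10 restricted libraries were above the control median, 8 were above the highest control library, and 9 of 10 control libraries were below the lowest restricted one. Of all genes tested, 0.363% had every restricted library above every control library and 0.588% had every one below, and 0 of these 10 genes did either. The mean was 12556 ± 1458 CPM in restricted and 9988 ± 810 CPM in control libraries (SD, n = 10 each), a log2 fold change of 0.31 ± 0.0819 (SE), or 1.24-fold (adjusted p = 0.015, edgeR). The call held without each single library, with log2 fold changes of 0.28 to 0.35 and an adjusted p of up to 0.0498 without Control 6 (edgeR). Fabp4 did not pass with no filter on low counts (0.31, adjusted p = 0.0585) or with replicate numbers as a block (0.31, adjusted p = 0.0665, edgeR). With the 6 muscle libraries left out the means were 12484 ± 1527 CPM (n = 9) in restricted and 10054 ± 902 CPM (n = 5) in control libraries, and the log2 fold change of 0.28 did not pass (adjusted p = 0.137, edgeR). Within replicates 1 to 5 all restricted libraries lay above all control libraries (restricted 12965 ± 1622, control 9921 ± 807 CPM, SD, n = 5 each). Within replicates 6 to 10 they overlapped (restricted 12147 ± 1316, control 10054 ± 902 CPM). Among libraries marked Yes the 3 restricted libraries (12065 ± 1218 CPM) all lay above the 7 control libraries (9949 ± 797 CPM). Among libraries marked No the diets overlapped. The splits by label and by replicate number were looked at for each of the 10 genes. Of replicates 1 to 5, all control libraries but only Restricted 1 of the others hold muscle transcripts. The share of all genes with no overlap in so small a split was not counted.

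Fabp5 (ENSMUSG00000027533.10; chr3:10012548-10016335, plus strand) is the epidermal-type carrier, which fat cells and macrophages both make. Its lowest, median and highest values were 77.0, 108 and 450 CPM in restricted and 65.5, 93.7 and 104 CPM in control libraries. Restricted 1 alone had the 450 CPM; Restricted 10 and 5 followed at 165 and 158 CPM, and Restricted 2, 3 and 8 lay below the control median. The log2 fold change was 0.81 ± 0.248 (SE, adjusted p = 0.0339, edgeR). Without Restricted 1 it was 0.20 (adjusted p = 0.421), without Control 3, the lowest control library, 0.78 (adjusted p = 0.0617), and without the 6 muscle libraries 0.13 (adjusted p = 0.673, edgeR). With no contamination label in the model it was 0.69 (adjusted p = 0.0648, edgeR). The 5 control libraries with muscle transcripts had 65.5 to 104 CPM, and the other 5 had 80.3 to 101 CPM. Macrophage markers were lower in restricted libraries, as given above, and Restricted 1 had the lowest macrophage sum, 1096 CPM; the part of macrophages in the Fabp5 values was not tested. As a share of Fabp4 counts, Fabp5 was 0.706% to 3.41% in restricted libraries, with a median of 0.888%, and 0.655% to 1.13% in control libraries, with a median of 0.918%, so that apart from Restricted 1 the ratio of the pair covered much the same range in both diets.

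Neither gene of entry through the cell surface passed the test. Cd36 (ENSMUSG00000002944.15; chr5:17781690-17888747, minus strand), the membrane receptor that speeds the uptake of long-chain fatty acids, was at 2091, 2931 and 3440 CPM in restricted and 2279, 2659 and 2925 CPM in control libraries (lowest, median and highest). Restricted libraries lay on both sides of the control range, 5 above it and 1 below it. The mean was 2895 ± 437 CPM in restricted and 2614 ± 215 CPM in control libraries (SD, n = 10 each), and the log2 fold change of 0.08 had a 95% interval of −0.09 to 0.26 (adjusted p = 0.563, edgeR), with 0.01 without Restricted 1 and −0.02 in the 14 libraries without muscle transcripts. The means in those 14 libraries were 2852 ± 440 CPM in restricted (n = 9) and 2682 ± 232 CPM in control libraries (n = 5, SD). Slc27a1 (ENSMUSG00000031808.7; chr8:71568882-71586705, plus strand), the insulin-responsive transport protein FATP1, varied most among control libraries, with a coefficient of variation of 22.7% there and 31.8% in restricted libraries. It was at 492, 806 and 1378 CPM in restricted and 493, 642 and 987 CPM in control libraries, with the same lower end in both diets and Restricted 10 at the top. Its log2 fold change of 0.26 had a wide interval, −0.10 to 0.63 (adjusted p = 0.341, edgeR). Without Restricted 1 the value for Slc27a1 was 0.18 (adjusted p = 0.597), and without the 6 muscle libraries 0.04 (adjusted p = 0.951, edgeR).

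Acsl1 (ENSMUSG00000018796.13; chr8:46471037-46534684, plus strand), the main long-chain acyl-CoA synthetase of adipocytes, had 1243, 1782 and 3301 CPM in restricted and 1222, 1529 and 1936 CPM in control libraries. The lower ends were alike, and 4 restricted libraries lay above the control range: Restricted 1 (3301 CPM), 5 (2667 CPM), 10 (2514 CPM) and 4 (2227 CPM). The log2 fold change of 0.40 (95% interval 0.08 to 0.72) missed the threshold (adjusted p = 0.0861, edgeR). It was 0.22 without Restricted 1 (adjusted p = 0.35), 0.18 without the 6 muscle libraries (adjusted p = 0.608) and 0.45 without Restricted 7, the lowest restricted library, where it passed (adjusted p = 0.0429, edgeR). In DESeq2 all 20 libraries gave 0.41 (adjusted p = 0.0469). In the 17 libraries with an RNA integrity number it was 0.50 and passed (adjusted p = 0.0486, edgeR). With that number as a term it was 0.56 and did not (adjusted p = 0.104, edgeR). Within replicates 1 to 5 restricted libraries were at 2341 ± 659 CPM and control libraries at 1526 ± 126 CPM, with no overlap. Within replicates 6 to 10 restricted libraries were at 1693 ± 497 CPM and control libraries at 1578 ± 266 CPM (SD, n = 5 each), with overlap. As given for Fabp4, replicates 1 to 5 also differ in muscle transcripts. Among libraries marked Yes the 3 restricted libraries (2269 ± 894 CPM) all lay above the 7 control libraries (1515 ± 170 CPM). Among libraries marked No the diets overlapped. The share of all genes with no overlap in such splits was not counted.

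Many of these genes are textbook targets of PPARG, the nuclear receptor of fat cells, which binds with RXR to a pair of AGGTCA sites 1 base apart. RefSeq promoter windows (GRCm38.p6, 250 bases before to 50 after a gene start) were matched for 5 of the 10 genes, Cd36, Acsl1, Slc27a1, Lmf1 and Vldlr, with 9 windows in all. The full motif, AGGTCA, any 1 base and AGGTCA again, searched on both strands, is in 0 of the 9, and in 0.0396% of 32851 windows of that length over all genes. So rare a motif is absent from nearly all windows, so 0 of the 9 cannot set these genes apart from others. The single site AGGTCA, which the full motif contains, is in 1 of the 9, that of Cd36, and in 16.3% of all windows. The window of Cd36 (chr5:17835847-17836146, minus strand), shown because it holds that match, reads 5′ to 3′ with the site, whose letters are on the other strand, in capitals.
Cd36 promoter window: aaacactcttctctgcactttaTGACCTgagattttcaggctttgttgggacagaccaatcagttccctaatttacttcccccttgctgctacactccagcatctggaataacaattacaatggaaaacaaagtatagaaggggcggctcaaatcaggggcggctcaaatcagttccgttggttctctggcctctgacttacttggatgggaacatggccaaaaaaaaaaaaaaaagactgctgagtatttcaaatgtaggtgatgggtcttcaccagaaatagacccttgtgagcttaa
A match of letters is a description of this window and says nothing of binding. Pparg itself was at 304 ± 40.0 CPM in restricted and 269 ± 23.9 CPM in control libraries (SD, n = 10 each; log2 fold change 0.20, adjusted p = 0.101, edgeR).

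High values gathered in a few restricted libraries. Restricted 1, 5 and 10 were the 3 highest of all 20 libraries for Lpl, Acsl1 and Fabp5, and Restricted 10, 1 and 5 ranked 1, 2 and 4 for Slc27a1. Restricted 1 was the highest library for 4 of the 10 genes, Restricted 5 for 3 and Restricted 10 for 2; the remaining gene, Angptl4, was highest in Control 3. Control 3 was also the lowest library for 3 genes, Lpl, Gpihbp1 and Fabp5. The 3 high libraries differed in label and in muscle markers: Restricted 1 is marked Yes and Restricted 5 and 10 are marked No, and their summed muscle markers were 4247, 52.0 and 124 CPM. Their summed adipocyte markers were 29269, 37819 and 42199 CPM, the lowest and the highest of the restricted libraries among them. The 3 libraries shared the highest sums of 8 brown fat markers of all 20, at 81.4, 60.1 and 84.4 CPM in Restricted 1, 5 and 10, with 46.1 CPM in the next library, although Ucp1 was near 0 in every library. Of those markers Cidea (log2 fold change 1.63, adjusted p = 0.00491) and Cox8b (1.05, adjusted p = 0.00875) rose with restriction (edgeR). Cox7a1 (0.35), Ppargc1a (−0.04) and Prdm16 (−0.09) did not pass, and Ucp1, Dio2 and Elovl3 were too low to test. The 3 libraries, picked by their levels of the 10 genes, also shared the lowest sums of 12 progenitor markers, at 1603, 1783 and 1800 CPM, with 1930 CPM in the next. Low sums were not particular to these 3. Progenitor sums were 1603 to 2396 CPM (median 2014) in restricted libraries. In control libraries they were 2216 to 3055 CPM (median 2574). The part of brown fat or progenitor markers in the levels of the 10 genes was not tested. Angptl4 did not rank with the others in these libraries, at places 8, 13 and 5 of 20 in Restricted 1, 5 and 10.

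**Figure D3:**
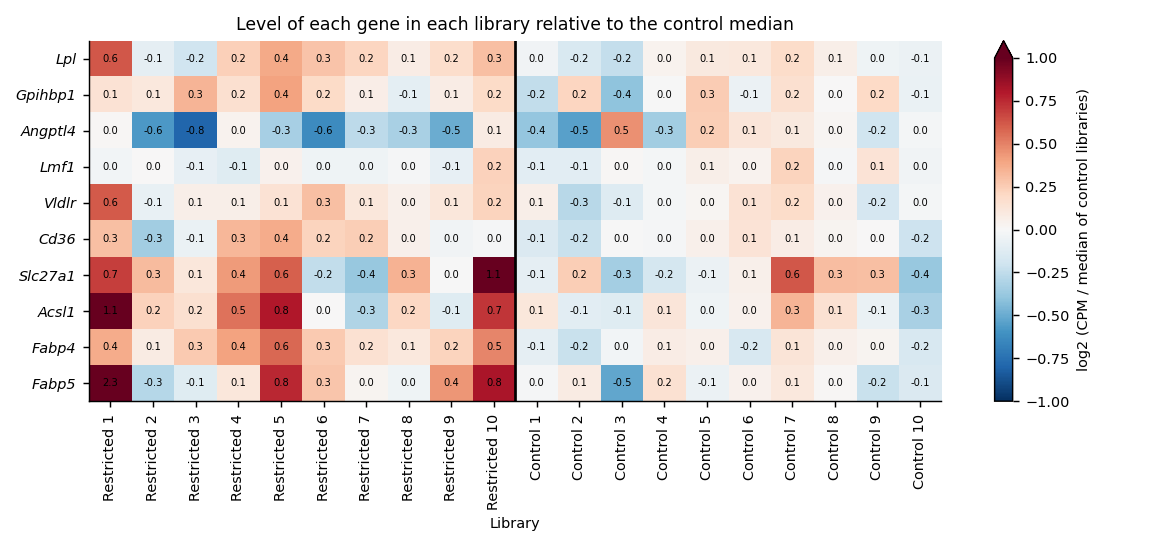
Level of each gene (rows) in each library (columns, restricted left of the line, control right), as log2 of its CPM over the median of the control libraries; colours stop at 1, above which Slc27a1 in Restricted 10, Acsl1 in Restricted 1 and Fabp5 in Restricted 1 lie. Restricted 1, 5 and 10 are red in Lpl, Slc27a1, Acsl1, Fabp4 and Fabp5, and Angptl4 is blue in 7 of the 10 restricted libraries.

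None of the 10 genes was called by the contamination label. In the same fit, 5.3% of all genes differed between libraries marked Yes and No (5.04% higher and 0.269% lower in Yes), beside 0 of the 10 (1 of the 10 had an unadjusted p under 0.05, and DESeq2 called 0, with 2 at that p). Without the 6 muscle libraries edgeR also called 0 of the 10 by label, but 5 had an unadjusted p under 0.05 and the smallest adjusted p was 0.055. The label differences ran from −0.27 for Angptl4 (adjusted p = 0.331) to 0.41 for Fabp5 (adjusted p = 0.524, edgeR), Yes over No on the log2 scale. A term for the product of diet and label, which asks whether the diet difference is the same in both kinds of library, was called for 0 of the 10 and 0% of all genes, with 871 genes and 0 of the 10 at an unadjusted p under 0.05 (edgeR; DESeq2 called 1 gene, none of the 10). Its widest estimate was 0.68 ± 0.497 (SE) for Fabp5, whose Yes libraries include Restricted 1.

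Levels of different genes were compared per length, as mean CPM per kilobase of the deposited gene length, which for these 10 genes equals all annotated exons of GENCODE vM21 merged. On this scale Fabp4 was highest at 2797 ± 325 in restricted and 2225 ± 180 in control libraries (SD, n = 10 each), before Lpl at 1122 ± 181 in restricted and 966 ± 84.0 in control libraries and Cd36 at 807 ± 122 in restricted and 728 ± 59.8 in control libraries. Acsl1 followed at 192 ± 61.7 in restricted and 148 ± 18.9 in control libraries, Slc27a1 at 141 ± 44.8 in restricted and 116 ± 26.4 in control libraries, and Angptl4 at 87.7 ± 18.3 in restricted and 106 ± 22.7 in control libraries. The SD ranges of Acsl1 and Slc27a1, and of Slc27a1 and Angptl4, overlapped in both diets. Gpihbp1 was at 53.4 ± 5.19 in restricted and 48.2 ± 6.81 in control libraries, and Fabp5 at 41.1 ± 31.0 in restricted libraries, where the pair overlapped, and 25.5 ± 3.24 in control libraries. Vldlr was at 11.3 ± 1.62 in restricted and 9.95 ± 0.961 in control libraries, and Lmf1 lowest at 2.72 ± 0.194 in restricted and 2.78 ± 0.202 in control libraries. The order of the 10 was the same in both diets. The merged length of Fabp4 is 4489 bases, its whole span, against 896 in its coding transcript. With the longest coding transcript in their place, a choice made after the data were seen, Fabp4 was at 14013 and Lpl at 2856 CPM per kilobase in restricted libraries (11147 and 2460 in control libraries), the first 5 places were the same, Fabp5 stood above Gpihbp1, and above Angptl4 in restricted libraries only, and Lmf1 stood above Vldlr.

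The rest of the pathway was followed through a list of 19 other genes of the lipase axis and of lipoprotein uptake, of which 16 passed the filter on low counts. Of these, 4 rose and 1 fell with restriction (median log2 fold change 0.01), beside 6.31% higher and 7.29% lower of all tested genes. Angptl8, a feeding-induced regulator of the lipase and a counterweight to Angptl4 in fat, rose to 15.9 ± 8.04 CPM in restricted libraries, against 9.55 ± 2.30 CPM in control libraries (log2 fold change 0.88, adjusted p = 0.0104, edgeR). Without Restricted 1 it was at 0.57 (adjusted p = 0.0724), and it lies inside Dock6 on the opposite strand, whose reads cannot be told apart without strand. Pcsk6, a proprotein convertase that can cleave the lipase, had 208 ± 35.7 CPM in restricted and 144 ± 38.2 CPM in control libraries (log2 fold change 0.45, adjusted p = 0.0355), and without Control 1, 6 or 7 or Restricted 2 or 3 it did not pass. With the 6 muscle libraries left out, Pcsk6 was the 1 of the 16 still called, at 0.58 (adjusted p = 0.01, edgeR).

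Sel1l, part of the endoplasmic reticulum machinery that adipocytes need to secrete lipase, was at 166 ± 7.96 CPM in restricted and 148 ± 7.33 CPM in control libraries (SD, n = 10 each), a small difference (log2 fold change 0.13, adjusted p = 0.0281, edgeR). It missed the threshold without Restricted 1, Control 6 or Control 7 (adjusted p up to 0.0693). Apoc3, an inhibitor of the lipase made by the liver, rose to 1.48 ± 0.817 CPM in restricted libraries, against 1.01 ± 0.784 CPM in control libraries (log2 fold change 1.10, adjusted p = 0.0387) and was lost without any 1 of 8 libraries: Control 1, 2, 3, 6, 7 or 10 or Restricted 1 or 3. With no contamination label in the model Apoc3 was at 0.51 and did not pass (adjusted p = 0.397, edgeR). It was also higher in libraries marked Yes (1.29, adjusted p = 0.0262, edgeR). Sdc1, a heparan sulfate proteoglycan that takes up lipoprotein remnants in the liver, fell (log2 fold change −0.36, adjusted p = 0.0148) and had an adjusted p of 0.0582 without Control 7 (edgeR). Apoe, the main remnant ligand, which macrophages make too, was at 4403 ± 1014 CPM in restricted and 4899 ± 650 CPM in control libraries (adjusted p = 0.418, edgeR). Apoc2, the cofactor of the lipase, is made mainly in the liver and did not pass the filter here, with 7 counts in all libraries, in a place where it overlaps another gene on its strand.

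**Figure D4:**
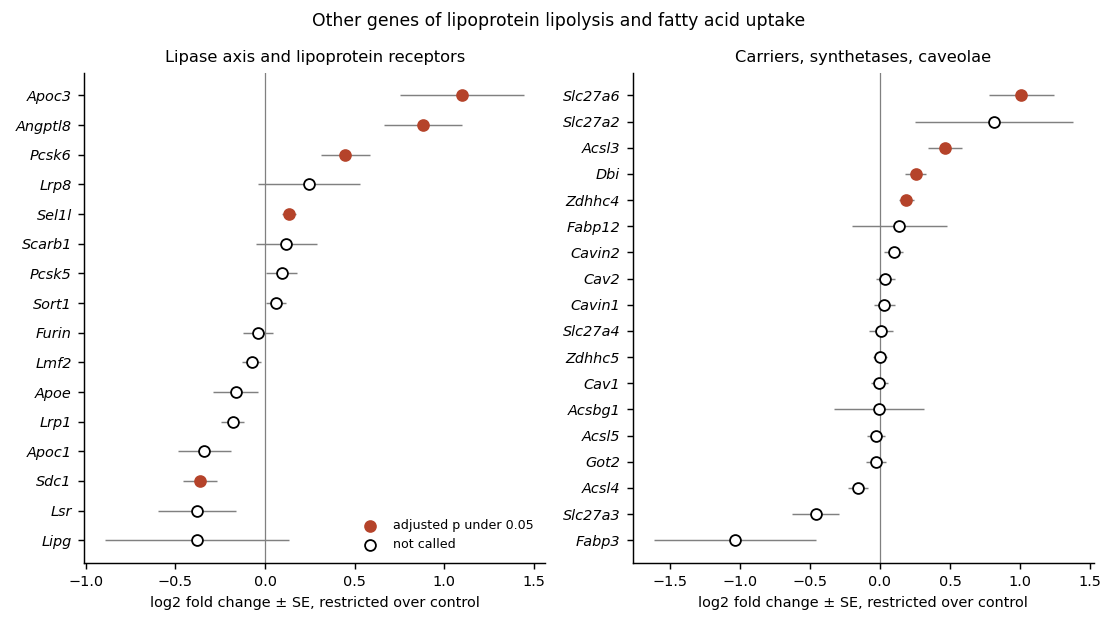
Log2 fold change with its standard error, restricted over control, of the other tested genes of the lipase axis (left, 16 genes) and of fatty acid carriers, synthetases and caveolae (right, 18 genes); filled points passed edgeR's test at an adjusted p of 0.05. On the right the 4 filled points, Slc27a6, Acsl3, Dbi and Zdhhc4, all lie above 0, and the caveolar genes lie close to 0.

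Of 26 other genes of fatty acid carriage and activation, 18 passed the filter, 4 rose and 0 fell (median 0.02). The shares over all tested genes were 6.31% higher and 7.29% lower. Acsl3, an acyl-CoA synthetase of lipid droplets, rose to 17.6 ± 2.91 CPM in restricted libraries, against 13.3 ± 2.89 CPM in control libraries (log2 fold change 0.46, adjusted p = 0.015, edgeR); another gene, Utp14b, overlaps it on its strand. Slc27a6, a transport protein known from heart, rose to 1.95 ± 0.587 CPM in restricted libraries, against 1.07 ± 0.402 CPM in control libraries (log2 fold change 1.01, adjusted p = 0.00638). Zdhhc4, a palmitoyltransferase that acts on CD36 in mouse fat cells, rose (log2 fold change 0.19, adjusted p = 0.0207; 0610040B10Rik overlaps it), and these 3 passed without each single library (edgeR). Dbi, the acyl-CoA-binding protein, was at 1712 ± 206 CPM in restricted and 1447 ± 108 CPM in control libraries (log2 fold change 0.26, adjusted p = 0.0286), and missed the threshold without Restricted 1 or Control 3, 6 or 7. Cav1, the main protein of caveolae, the surface pits in which CD36 gathers, was at 2400 ± 244 CPM in restricted and 2333 ± 109 CPM in control libraries (adjusted p = 0.964, edgeR). Fabp3, the muscle and heart carrier, was at 0.613 ± 0.691 CPM in restricted and 1.30 ± 1.52 CPM in control libraries (adjusted p = 0.252) and overlaps Zcchc17 on the other strand. Without the 6 muscle libraries the 4 genes that had risen had adjusted p of 0.0676 to 0.3 (edgeR).

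Of 20 genes of the PPAR receptors and their textbook targets, 19 were tested, 1 rose and 2 fell (median 0.07). Of all tested genes 6.31% rose and 7.29% fell. Cpt1a, the gate of fatty acid entry into mitochondria, fell to 107 ± 12.3 CPM in restricted libraries, against 131 ± 9.12 CPM in control libraries (log2 fold change −0.27, adjusted p = 0.00788), and passed without each single library (edgeR). Rxrg, a partner of PPARG, fell (log2 fold change −0.34, adjusted p = 0.0214) and missed the threshold without Control 3, 6 or 7. Ucp3, an uncoupling protein of muscle and fat, rose (log2 fold change 0.50, adjusted p = 0.0434, edgeR), is overlapped by Gm10603 and missed the threshold without any 1 of 11 libraries, Control 1, 4, 6, 7, 9 or 10 or Restricted 1, 2, 4, 5 or 10, with 0.35 and an adjusted p of 0.163 without Restricted 1. Without the 6 muscle libraries 0 of the 19 rose and 3 fell: Cpt1a, Rxrg and Rxra, a gene chosen after its values were seen (−0.25, adjusted p = 0.038, edgeR). With the RNA integrity number as a term in 17 libraries, none of the list calls passed edgeR's test. With no filter on low counts, where more genes were tested, Sel1l, Apoc3, Zdhhc4, Dbi and Ucp3 had adjusted p of 0.061 to 0.104, and with an index of muscle markers as a term Pcsk6 had 0.0699 (edgeR).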

How the data were processed

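PolyA RNA of mouse eWAT was sequenced in 20 libraries, with kit and instrument as in the labels' protocols, which name QUAD where the tissue label says eWAT. The deposited table holds the authors' whole-number counts per gene. The submitters' processing notes name bcl2fastq 4.0.3, Salmon, STAR and GRCm38 with no role or order; how reads were counted, and the annotation and strand setting, is not given in the sources used here. Coordinates are those of the deposited table, 1-based.

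The test was edgeR 4.0.16 (R 4.3.3): genes kept by filterByExpr over the diets at a minimum count of 10, TMM scaling, a two-sided quasi-likelihood test of label and diet, Benjamini-Hochberg over 15986 genes. An SE is the log2 fold change over the square root of F. CPM are counts over the TMM-scaled total of tested genes. On simulated data, 56.6% of 99 genes changed by 0.5 on the log2 scale and 86.9% of 99 changed by 1 were called among 15892 genes, with 6 false calls. No pair of libraries of a diet agreed within sampling noise (the lowest chi-square was 9.61 times its degrees of freedom).

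The 10 genes, the gene lists and the 6 libraries left out for muscle transcripts were chosen with earlier results of these data known. All 10 genes are named; of the lists, genes called by diet, up to 8 each, with Pparg, Apoe, Apoc2, Fabp3 and Cav1. Of the lipase list, 2 genes are not reported here and were taken out of its counts and median after its values were seen. The alternatives were DESeq2 1.42.0, other factors, filters, terms and sets of libraries. Figures used Python 3.11.15 with matplotlib 3.10.9, and alignment used Biopython 1.88. Calls in the remaining marker lists were progenitors (4 of 12 fell), germ cells (1 of 3 tested rose) and brown fat (2 of 5 tested rose). Of epididymal epithelium 0 of 5 tested were called, and of skeletal muscle 0 of 10 tested. Of all tested genes 6.31% rose and 7.29% fell.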

Additional observations from a re-analysis of the deposited data

Results flagged for a closer look

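Within the 10 libraries of a diet, the highest or lowest value was set against its gap to the next; over 20 such groups, chance alone marks about 1 in 20. Fabp5 stood at 450 CPM in Restricted 1, with 165 CPM in the next library. Vldlr stood at 155 CPM in Restricted 1, with 125 CPM in the next. Lmf1 stood at 43.7 CPM in Restricted 10, with 38.4 CPM in the next.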

How the results depend on the processing

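Of 340 values (34 alternatives for each of the 10 genes), 296 kept their direction and their side of the threshold, 39 lost and 3 gained the call, and 2 changed sign: Lpl at −0.0046 and Cd36 at −0.023 once the 6 muscle libraries were left out. In that set the restricted means of Lpl and Cd36 stayed above the control means. Of the 10 genes, 3 were called by diet. The number was 1 with no filter on low counts (Fabp5) and without the 6 libraries with muscle transcripts (Angptl4). It was also 1 with no contamination label and with replicates 1 to 5 against 6 to 10 as a term (Fabp4 each time). It was 0 with the replicate block, with the RNA integrity number as a term in the 17 libraries that have one, and in libraries marked No alone or Yes alone. In the same 17 libraries without the integrity term it was 3: Fabp4, Fabp5 and Acsl1. Of all genes edgeR called 2173, against 1388 with the replicate block, 392 with the integrity term, 1445 in the same 17 libraries without it, 400 in libraries marked No, 239 in those marked Yes and 927 without the muscle libraries. The replicate numbers pair nothing the labels describe: same-numbered libraries had correlations of deviations of −0.0895 to 0.134, 2 of 10 above 0.1, and 0 of 10 correlated best with their own number. Leaving out single libraries gave 1 (without Control 3) to 3 of the 10 and 1506 to 2274 of all genes. The cause of these changes was not tested. Some settings held fewer libraries, and the replicate block held all 20 but fitted more terms. Each of the 10 genes had at least 545 counts in every library.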
